A study of Mus musculus and other sequences with 2 samples.

Results

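The miR-297, miR-466, miR-467 and miR-669 sequences of the mouse were profiled in spent blastocyst culture media with 28 assays of a TaqMan RT-qPCR array, of 750 miRNA assays in all. Members were chosen by name, as every mouse assay of these 4 numbers with any letter or arm suffix and without the mark # that denotes a minor arm. The 28 assays comprised 2 for miR-297, 8 for miR-466, 8 for miR-467 and 10 for miR-669, of which card A of the array held 8 and card B held 20. They carried 27 different names, since miR-467a had an assay on each card. The comparison was made between media with and without embryos, to find sequences that embryos release.

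Conditioned media came from 25 embryos of CD1 mice, an outbred stock, cultured together in an 8 μL microdroplet for 17 h, from 99 to 116 h after the hCG injection used for superovulation. The female mice were 3 weeks old per the labels. The labels call the embryos blastocysts from the start, whereas the methods describe compacted or cavitating morulae that became blastocysts during this period. Blank media was a microdroplet cultured without embryos for 17 h. Both were BSA-free KSOM that the labels give as holding polyvinylacetate, and 6 μL of the conditioned microdroplet was lysed without RNA extraction. There was 1 sample of each medium and no replicate, so that no test between media was possible and every difference below is that of 2 wells. The measure is the Ct, the cycle at which fluorescence crossed a threshold within 40 cycles, on an inverted log2 scale where a lower Ct stands for more template. A well that never crossed it was given as undetermined. A Ct below 35 was called detected. An amount in media cannot be told apart into the number of cells that released a sequence and the amount released by each.

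Most of these miRNAs are encoded in one of the largest miRNA clusters of the mouse genome, which lies in an intron of Sfmbt2. This gene codes for a Polycomb-group protein and is imprinted, with expression from the paternal allele in trophoblast and other extraembryonic tissue. The cluster is found in rodents, and it is known for its part in the development of the placenta. Trophectoderm, the outer layer of the blastocyst that faces the culture media, is the origin of trophoblast.

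The label of an Sfmbt2 cluster was first checked by name against RefSeq genes of GRCm38.p6, a mouse assembly. Each of the 28 assays matched at least 1 miRNA gene, although miR-466a-3p did so only by an older name without the letter. For 23 assays, every matched gene lay within Sfmbt2. The other 5, which were miR-466J, miR-466k, miR-467F, miR-467H and miR-669n, matched a single gene on another chromosome. The name of a subfamily was therefore not the same as a location in Sfmbt2. The mature sequences of these 5 were present in the RefSeq table of GRCm38.p6, and they are shown to give the repeat-like character of the members outside the cluster. Capitals mark the seed, bases 2 to 8 from the 5′ end, which is the stretch that pairs with target mRNA.
miR-466J: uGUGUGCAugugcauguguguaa
miR-466k: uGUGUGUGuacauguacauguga
miR-467F: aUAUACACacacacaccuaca
miR-467H: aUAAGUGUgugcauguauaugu
miR-669n: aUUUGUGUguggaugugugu

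These 5 sequences had 5 different seeds. The motif UGUGU occurred in 4 of them, compared with 3.63% of the 1679 mature mouse sequences in the table, counted on the strand of the mature RNA. The exception, miR-467F, held ACACA, which occurred in 1.73% of all sequences and overlaps with AUACA, present in 1.97%. No member of the 5 held ACAUAC, found in 0.417%. Between 68.2% and 90% of bases were G or U in the 4 sequences with UGUGU, and 14.3% in miR-467F, with a median of 54.5% over all sequences. Although repeat-like, the 5 differed from each other by 6 to 16 substitutions, insertions or deletions over 10 pairs, so that no pair was within 2 changes. No entry in the table carried the assay name of a member within Sfmbt2, so the shares over all sequences may leave those members out.

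On the genome, miR-466k lay on the plus strand at chr3:85467396-85467418, within the span of the gene model Gm31419. The miR-669n sequence lay on the plus strand at chr3:115979905-115979924, within the span of Slc30a7, a zinc transporter gene. The miR-467F sequence lay on the minus strand at chr11:69635419-69635439, within the span of Fxr2, a paralogue of the fragile X gene. Neither miR-466J, on the plus strand at chr10:60960802-60960824, nor miR-467H, on the plus strand at chr9:115381898-115381919, was spanned by another annotated gene. Gene spans alone were used, so that exon and intron were not separated.

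In conditioned media, 7 of the 28 assays were detected, or 25.0%, and the share among all 567 mouse assays without # was 40%. In blank media, 5 of 28 were detected, or 17.9%, against 31.9% of the mouse assays. Both media shared 3 members, compared with 25.9% of mouse assays. Detection in conditioned media only was found for 4 members, or 14.3%, and for 14.1% of mouse assays, so that the share among the members was near that of the array. Detection in blank media only was found for 2 members, or 7.14%, and for 6% of mouse assays. The remaining 19 had no Ct below 35 in either medium, of which 16 were undetermined in both and 3 had a Ct of 35 or later. Among the members, the order of the media depended on this limit. At a Ct below 32, 4 members were detected in conditioned media and 5 in blank media, with 2 in conditioned media only and 3 in blank media only. The shares of mouse assays above are for a limit of 35. None is given for 32, so whether the whole array changed alike cannot be said.

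**Figure D1:**
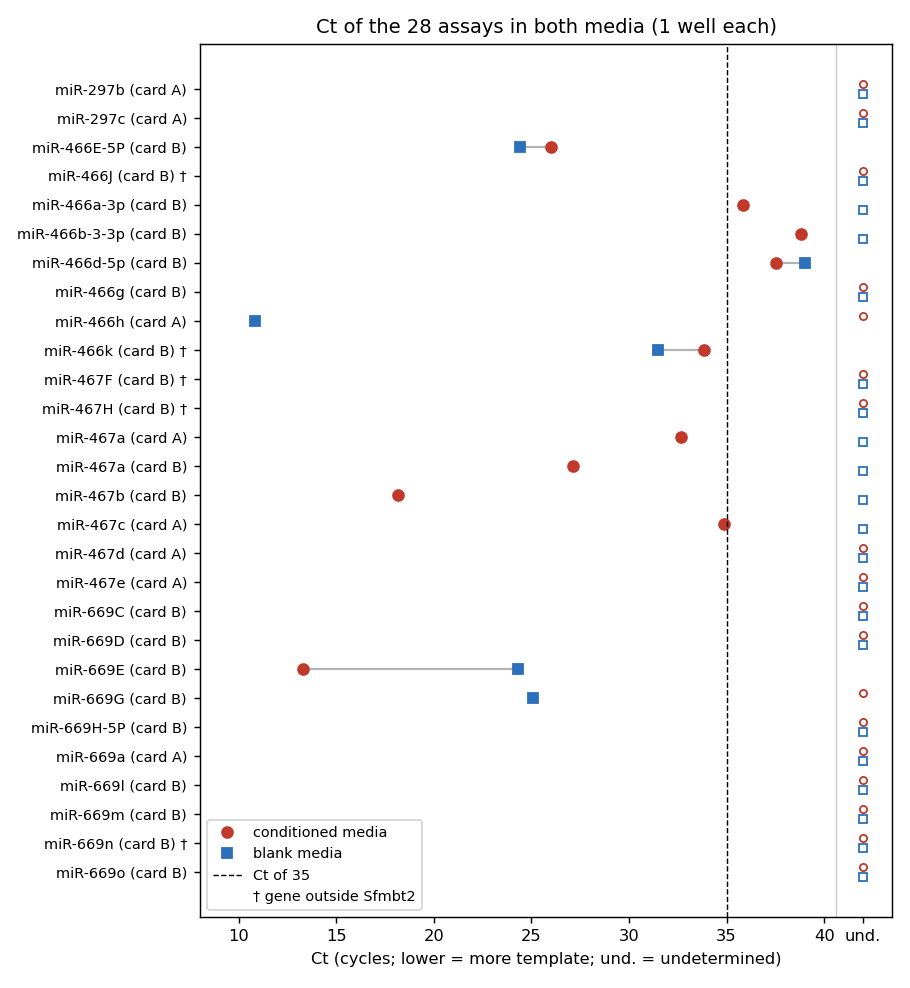
Ct in cycles (x axis, lower is more template) of each of the 28 assays in conditioned media (red circles) and blank media (blue squares), 1 well per point, with grey lines joining assays that had a Ct in both. Open symbols at the right edge are undetermined wells, the dashed line is a Ct of 35 and a dagger marks the 5 assays whose gene is outside Sfmbt2. The 4 assays below 35 in conditioned media alone, at 18.2, 27.1, 32.7 and 34.9, are all of miR-467.

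The 4 assays detected in conditioned media only were those of miR-467a, miR-467b and miR-467c, all of which are encoded within Sfmbt2. The card B assay of miR-467a gave a Ct of 27.1 with embryos, and its blank well was undetermined. Its second assay, on card A, gave a Ct of 32.7 with embryos and again none in the blank. The same name was thus detected with embryos and not without them in both wells, 5.55 cycles apart.

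The assay of miR-467b gave a Ct of 18.2 with embryos, and its blank well was undetermined. This was the lowest Ct of the miR-467 assays and ranked 49 of the 227 mouse assays detected in conditioned media. For miR-467c, the well with embryos gave a Ct of 34.89 and the blank well none, which placed it just inside the limit, at rank 226. Of the other miR-467 assays, miR-467d, miR-467e, miR-467F and miR-467H were undetermined in both media. None of the 8 miR-467 assays had a Ct in blank media, where 31.9% of mouse assays were detected. Of the 8, 4 were detected in conditioned media only, against 14.1% of mouse assays. This was noticed after the values were seen, and 1 of the 4 is a repeat of a name. The assay miR-467# gave a Ct of 35.8 with embryos, later than the limit, and none without them, whereas miR-467e# was undetermined in both. The study's own list of miRNAs found only in conditioned media, which also used a fluorescence limit, named no sequence of these subfamilies. That list held only the part of such miRNAs with minimal or no signal in the blank. It does not show which others passed the study's wider filter.

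Among the miR-466 assays, 2 were detected in both media, with a later Ct in conditioned media. The assay of miR-466E-5P gave a Ct of 26.0 with embryos and 24.4 without them, a difference of 1.61 cycles. For miR-466k, whose sequence of UG repeats is given above, the Ct was 33.8 and 31.5, a difference of 2.36 cycles. Both thus gave signal in media that had held no embryo.

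A single miR-466 assay was found in blank media alone. That of miR-466h had a Ct of 10.8 there and was undetermined in conditioned media. It was the lowest Ct of any member in either medium. The other miR-466 assays were late or undetermined. With embryos, miR-466a-3p gave a Ct of 35.8, just outside the limit, and miR-466b-3-3p one of 38.8, and the blank wells of both were undetermined. The assay of miR-466d-5p gave a Ct of 37.6 with embryos and 39.0 without them, while miR-466g and miR-466J were undetermined in both. Rat assays of miR-466b and miR-466c were undetermined in both media as well.

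The miR-669 subfamily had the most assays and the fewest detected in conditioned media among the 3 subfamilies detected at all, 1 of 10. This was miR-669E, with a Ct of 13.3 with embryos and 24.3 without them. Its difference, with the blank subtracted, was -10.99 cycles. Of all 567 mouse assays, 17, or 3%, showed a difference below -5 cycles with both Ct values under 35. These were 17 of the 147 assays for which a difference could be taken, and another 17 had one above 5 cycles. Among the 147 mouse assays detected in both media, this was the second earliest difference, after one of -21.3 cycles. In either direction, 13 assays, miR-669E included, differed by at least as much, and the largest difference towards a later Ct was 18.7 cycles. The assay of miR-669G went the other way, with a Ct of 25.1 in the blank and none with embryos. The other 8 assays, for miR-669a, miR-669C, miR-669D, miR-669H-5P, miR-669l, miR-669m, miR-669n and miR-669o, were undetermined in both media. Both miR-297 assays, miR-297b and miR-297c, were undetermined in both media, and the minor-arm assay miR-297a# gave 14.9 with embryos and 12.7 without them.

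An arm was given in the names of 5 assays. Of the 3 named 5p, miR-466E-5P was detected, and of the 2 named 3p, none was. By position in their hairpins, miR-466k and miR-669n lay on the 5′ side and miR-466J, miR-467F and miR-467H on the 3′ side. In conditioned media, 6 of the 23 members within Sfmbt2 were detected, or 26.1%, and 1 of the 5 outside it, miR-466k, or 20%. Both shares lay below the 40% of mouse assays.

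Error could be judged only between wells and assays. On card B, which held all 3 members detected in both media, the SD of U6 small nuclear RNA over 4 wells was 0.83 with embryos and 0.23 without them, and the SD of a difference between wells was 0.86 by combining these. The differences of miR-466E-5P, miR-466k and miR-669E were larger than this SD, and a limit set by 1 RNA does not give the error of another assay. On card A, which held 8 members, the SD of U6 was 0.68 with embryos and 3.22 without them, and that of a difference was 3.29. Between 2 assays of the same name, which need not share a design, the spread was larger. Where both were detected in 1 medium, the median gap was 3.74 cycles over 8 pairs, and the gaps ran from 1.25 to 14.7. The differences of miR-466E-5P and miR-466k were smaller than that median, and that of miR-669E was within its range. Detection itself varied between such assays. Of 26 names with 2 assays, 10 had no assay detected in either medium. Of the other 16, both assays fell in the same class of detection for 5, of which miR-467a was 1.

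A Ct below 20 in either medium was given by 3 of the 28 members and by 88 of the 567 mouse assays. The 3 members were miR-467b and miR-669E in conditioned media and miR-466h in blank media. Such early Ct values were found in 66 of the 567 mouse assays in conditioned media and in 66 in blank media, 11.6% in each, and so were equally frequent in the 2 media. The lowest Ct of miR-290 to miR-295 in conditioned media was 19.6, for miR-292-3p, later than those of miR-467b and miR-669E. The paper reports the miR-290 cluster at higher levels than all other sequences detected on the array. Its detection also required a fluorescence limit that was not used here, so the sets of detected assays differ. Whether the early Ct values of these 3 members stand for more template was not tested, nor was their part in the results. With these 3 assays left out, miR-467a and miR-467c remained detected in conditioned media only, miR-466E-5P and miR-466k in both media, and miR-669G in blank media only.

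**Figure D2:**
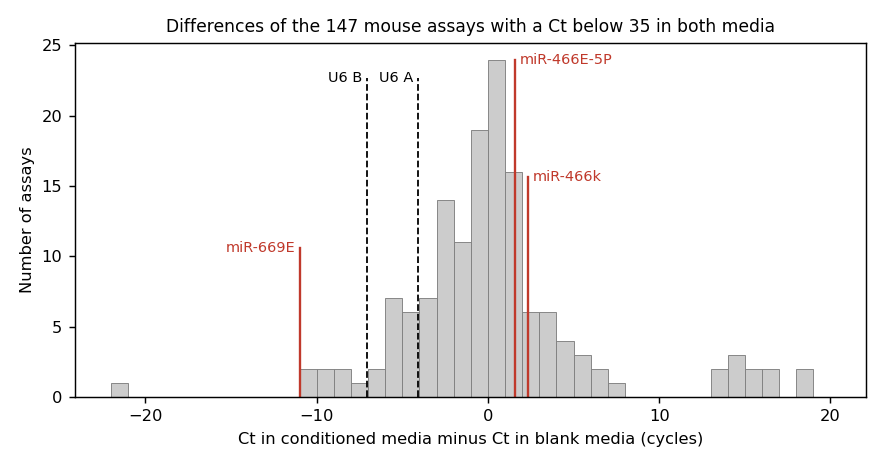
Number of assays (y axis) by the difference in Ct, conditioned minus blank (x axis, cycles, 1-cycle bins), for the 147 mouse assays detected in both media. Red lines mark miR-669E at -10.99, miR-466E-5P at 1.61 and miR-466k at 2.36, and dashed lines the mean difference of U6 on card A at -4.08 and card B at -7.07.

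Over the 147 mouse assays, the median difference was -0.05 cycles and the quartiles were -2.25 and 1.82. The difference of miR-466E-5P lay between these quartiles, and that of miR-466k lay above the upper one, where 64 assays differed by at least as much in either direction. Of the 3 members detected in both media, none was more than 5 cycles later in conditioned media. Among the 147 mouse assays detected in both, 17 were, or 3% of all 567. No difference could be counted for miR-466h and miR-669G, which had a Ct in blank media and were undetermined in conditioned media. U6 itself had a mean difference of -7.07 cycles on card B. Relative to U6 of that card, the difference was 8.68 cycles for miR-466E-5P, 9.43 for miR-466k and -3.91 for miR-669E, so that the first 2 were then more than 5 cycles later and miR-669E was no longer more than 5 cycles earlier.

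The arrangement of the genes in the host was set beside these values. In the annotation, Sfmbt2 spanned 72 miRNA genes, all of the 4 subfamilies, with 5 of miR-297, 24 of miR-466, 14 of miR-467 and 29 of miR-669. In gene order, a miR-467, a miR-466 and a miR-669 gene followed each other 12 times, and in 7 of these runs they were miR-467a, miR-466b or miR-466c, and miR-669a. Neighbours of this kind read differently on the array. The miR-467a assays were detected in conditioned media only, the assay of miR-466b-3-3p was past the limit at 38.8, and that of miR-669a was undetermined in both media. The assays measure mature RNA and can differ in efficiency, and no value here gives the primary transcript.

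The annotation held 12 genes for miR-669a, 10 for miR-467a and 8 for miR-466b, and 1 each for miR-467b, miR-467c and miR-669E. The detected miR-467b gene lay between Mir669a-4 and Mir466c-1, and miR-467c between Mir466o and Mir466b-1. For miR-669E the neighbours were Mir669f and Mir669b, and for miR-669G, seen in blank media alone, they were Mir669a-1 and Mir669j. Of the 72 genes, 21 under 14 different names had no assay among the 28, including all genes of miR-466f, miR-466c and miR-297a. The 28 assays therefore read part of the cluster.

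**Figure D3:**
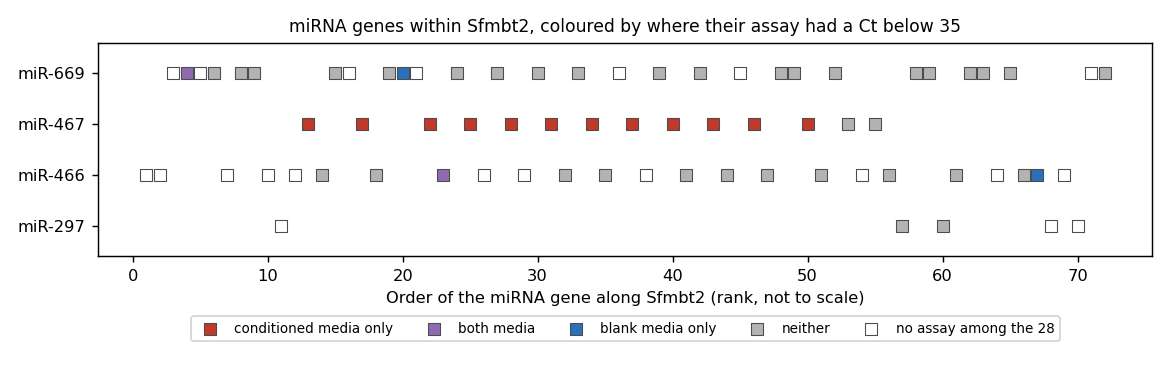
The 72 miRNA genes within Sfmbt2 in their order along the host (x axis, rank and not distance) by subfamily (y axis), coloured by the medium in which an assay of that name had a Ct below 35. The 12 red squares, all of miR-467, rest on 3 names, since 10 are copies of miR-467a, and white squares are the 21 genes with no assay among the 28.

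The share of members detected in conditioned media only, 14.3%, was near the 14.1% of all mouse assays, and 2 other miRNA clusters lay to either side. This class held 10 of 14 mouse assays of miR-290 to miR-295, the cluster of pluripotent cells, and 4 of 72 assays numbered for the imprinted Dlk1-Dio3 cluster, against 4 of 28 here. In blank media, none of the 14 and 18 of the 72 were detected, against 5 of 28 and 31.9% of mouse assays. These are counts of wells from 1 sample of each medium, and the differences between clusters were not tested. Of listed miRNAs of other cells that could shed into media, the spermatozoan miR-34b-3p and miR-34c were both detected in conditioned media and 1 of them in blank media. A further listed name, miR-449a, had no assay of exactly that name, and the assay named miR-449 gave a Ct of 24.9 with embryos and 28.9 without them. Assays of the same numbers that were not listed, miR-34b-5p, miR-34b and miR-449b, were undetermined in both media. For blood, 1 of 3 assays was detected, in both media. Their part in the results was not tested.

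**Figure D4:**
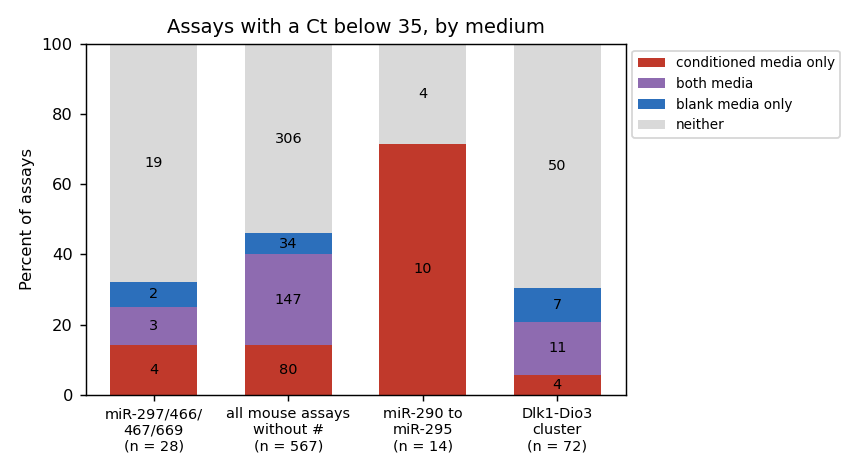
Percent of assays (y axis) with a Ct below 35 in conditioned media only, in both media, in blank media only or in neither, for the 28 members, all 567 mouse assays without #, 14 assays of miR-290 to miR-295 and 72 numbered for the Dlk1-Dio3 cluster, with counts printed in the bars. The red share is 14.3% for the members, 14.1% for all mouse assays, 71.4% for miR-290 to miR-295 and 5.56% for Dlk1-Dio3.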

How the data were processed

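Media lysates of 1 conditioned and 1 blank microdroplet were reverse transcribed, pre-amplified for 12 cycles and amplified for 40 cycles on cards A and B by the authors. They deposited the Ct of each of 768 wells per sample without normalization, on an inverted log2 scale. Of these wells, 18 were controls and were left out of counts. The height of fluorescence, on which the study set a second limit, was not analysed here, and the Ct limit of 35 was used alone. A deposited table of the authors' own fold change per assay was not used. Samples were grouped by the culture named in the labels. Differences were taken as conditioned minus blank Ct, without normalization.

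Every member was named, with Ct values wherever 1 was determined. Members, comparison clusters and lists were chosen with earlier results of these data known. No genome build is named for the Ct values, and gene names, order and sequences are those of RefSeq on GRCm38.p6. Of 28 assays, 5 matched a mature sequence. Alternatives were Ct limits of 32 and 38 and any Ct, assays with a Ct below 20 left out, unique names, members within Sfmbt2, differences centred on the card or relative to U6, and a limit of 3 cycles. Class counting and the name rule were tested on simulated data for 750 assays, where 2 of 2 checks passed. Python 3.11.15, pandas 2.3.3, numpy 2.4.6 and matplotlib 3.10.9 were used.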

Additional observations from a re-analysis of the deposited data

How the results depend on the processing

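With 1 sample per medium, no sample could be left out, and the Ct of single wells limits every value. No paired analysis was possible because each medium had 1 sample and no test was run. The median difference of members detected in both media, 1.61 cycles, rested on 3 assays. It was -4.69 at a Ct limit of 32 and also with the members restricted to Sfmbt2, since each left miR-466E-5P and miR-669E. It was 0.0605 with any determined Ct, 8.68 relative to the mean of U6 and 8.57 relative to its median. Relative to either, 0 members had a difference below -5 cycles and 2 had one above 5. A Ct limit of 32 left 4 members detected in conditioned media and 5 in blank media, 2 in conditioned media only and 3 in blank media only. No share over all mouse assays is given at that limit. With the 3 assays that had a Ct below 20 in either medium left out whole, 3 members were detected in blank media, 1 in blank media only, and 0 had a difference below -5 cycles.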
